A study of Mus musculus with 36 samples.

Results

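The genes described here are the Sox, Pax, Lhx, Nkx and Tbx transcription factors on the autosomes, chosen by symbol from the 6 deposited tables of liver H3K9me3 peaks. The rule took every row whose nearest gene had a symbol of those 5 families followed by a digit. It found 3578 rows of 786789 in the 6 tables together, and these rows carried 64 symbols. All 61 protein-coding autosomal genes of the families in RefSeq had at least 1 row, and the other 3 symbols were the antisense transcripts Pax6os1, Sox5os3 and Tbx3os2, which the wording of the rule let in with 151 rows. Tbx3os1 and Sox5os4 had no row.

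H3K9me3, trimethylation of lysine 9 of histone H3, was profiled by chromatin immunoprecipitation and sequencing (ChIP-seq) in livers of female and male mice whose dams received a Western-style diet (maternal obesity, MO) or a control diet from before mating until the pups were weaned. The offspring (Reg3g-fl/+ or Reg3g-fl/fl, floxed littermate controls) were examined at 3 weeks, before weaning, or at 8 weeks after 5 weeks of chow. The 32 ChIP libraries form 8 groups of 4: females and males of control or MO dams, each at either age, and 4 input libraries were not used. Each table holds peaks of a pair of groups, that is 8 libraries, with the average signal over both, and no value per library. The pair is control and MO at one age and sex (4 tables) or both ages of control animals of one sex (the other tables). The control libraries enter more than 1 table, so the 6 tables are not separate measurements. Control and MO livers were not compared here, because the authors' own comparison columns were not used and the level pools both diets. The tables give neither the depth of a library nor the spread between animals, and no difference has a test. Liver tissue mixes cell types, and a weaker signal in every cell cannot be told apart from a signal in fewer cells.

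These families share a logic of use. Each protein binds DNA through a conserved domain (an HMG box in Sox, a paired domain in Pax, a LIM-type or NK-type homeodomain in Lhx and Nkx, a T-box in Tbx) and directs the identity of particular cells in the embryo, such as neural progenitors, heart muscle, pituitary, kidney or pancreatic islets. Most are switched off outside their own lineage, commonly under Polycomb repression at CpG-rich start sites, whereas H3K9me3 is best known for repeats and for zinc finger gene clusters. The label given to the genes, silent in adult liver, was not checked by expression, since the tables measure only the mark. The study also sequenced liver RNA at both ages, and those values were not used here. As background, several members do act in liver, among them Sox9 in bile duct cells, Lhx2 in stellate cells, Sox17 and Sox18 in endothelium and Tbx21 in lymphocytes.

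In the liver tables most of these genes had an H3K9me3 peak over the start site. To show what such start sites look like, the 250 bases before the start of 4 genes are given from the RefSeq promoter table (GRCm38.p6), read along the gene, with every CG in capitals. Of the genes with an entry at the start site used here, they are those with the most and the fewest CGs relative to base composition, among the genes whose start site was under a peak in all 6 tables (Nkx6-1 and Tbx10) and among those whose start site was under none (Pax5 and Lhx8). The table held 46 of the 61 genes, 30 of them at the start site used here. The Nkx6-1 stretch lies at chr5:101664712-101664961 on the minus strand, Tbx10 at chr19:3992502-3992751 on the plus strand, Pax5 at chr4:44710695-44710944 on the minus strand and Lhx8 at chr3:154330561-154330810 on the minus strand.
Nkx6-1: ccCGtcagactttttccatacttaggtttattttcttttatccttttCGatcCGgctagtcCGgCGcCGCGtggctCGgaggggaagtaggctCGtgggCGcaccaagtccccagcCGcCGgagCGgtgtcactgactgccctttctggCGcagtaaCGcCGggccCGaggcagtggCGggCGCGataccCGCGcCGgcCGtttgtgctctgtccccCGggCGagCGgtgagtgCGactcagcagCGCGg
Tbx10: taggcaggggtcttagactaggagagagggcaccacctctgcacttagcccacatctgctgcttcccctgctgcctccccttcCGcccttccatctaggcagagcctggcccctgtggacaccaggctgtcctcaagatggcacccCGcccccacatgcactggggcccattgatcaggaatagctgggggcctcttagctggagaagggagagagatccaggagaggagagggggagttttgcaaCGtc
Pax5: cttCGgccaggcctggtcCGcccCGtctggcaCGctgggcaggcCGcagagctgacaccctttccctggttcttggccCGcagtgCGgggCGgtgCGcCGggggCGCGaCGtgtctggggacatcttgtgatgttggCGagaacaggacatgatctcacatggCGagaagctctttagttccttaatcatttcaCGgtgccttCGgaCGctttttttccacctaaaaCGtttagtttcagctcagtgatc
Lhx8: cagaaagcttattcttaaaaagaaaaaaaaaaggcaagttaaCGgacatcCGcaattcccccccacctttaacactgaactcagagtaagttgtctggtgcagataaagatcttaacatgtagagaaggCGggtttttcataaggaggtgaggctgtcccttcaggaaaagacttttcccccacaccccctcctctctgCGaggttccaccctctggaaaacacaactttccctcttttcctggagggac
The 4 stretches held 30, 3, 19 and 4 CGs. The median over all 32851 promoter entries was 6 and over the 66 entries of the lineage factors 13. A CG was found in 92.1% of all entries on either strand, CG being its own complement. Nkx6-1 is required for pancreatic beta cells and Pax5 for B cells. In control males a peak at chr4:44710764-44714727 covered part of the Pax5 stretch shown without reaching the start site, so the absence concerns the start site alone. In all 6 tables a peak within Lhx8 ended at chr3:154330528, close to its start site at 154330560.

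The start site, taken as the 5′ end of the RefSeq gene, was under a listed peak in 53 of 61 genes in females at 3 weeks and in females at 8 weeks, and in 54 of 61 in males at 3 weeks and at 8 weeks. The tables that pool both ages of control animals gave 51 for females and 54 for males. Over all 20558 protein-coding autosomal genes the same share was 43.1% in females at 3 weeks, 43.5% in females at 8 weeks, 47% in males at 3 weeks, 46% in males at 8 weeks and, for the tables of control animals, 43.5% for females and 48.1% for males, against 83.6% to 88.5% of the lineage factors. The start site was under a peak in all 6 tables for 51 of the 61 genes, compared with 7067 of the 20558. Start sites of the other 10 divided into 3 found in some tables (Nkx2-6, Pax4 and Tbx15) and 7 found in none: Lhx8, Nkx2-5, Pax5, Sox6, Sox13, Sox30 and Tbx19. Counting only peaks whose listed bin was above the table's median level, a setting chosen after seeing the data, the share in females at 3 weeks was 41.0% of members and 22.1% of all genes, in females at 8 weeks 63.9% and 26.3%, in males at 3 weeks 59.0% and 23.9% and in males at 8 weeks 54.1% and 28.9%. These 7 were not free of peaks near a start: each had a bin within 1 kb of some annotated transcript start, Lhx8, Pax5, Sox6, Sox13 and Sox30 in all 6 tables, Tbx19 in 4 and Nkx2-5 in 3.

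The excess over other genes was also present in each class when start sites were split at a set CG content. Within a class, members and other genes were not matched on CG content. The CpG ratio, the number of CGs over that from the C and G content of the 300 bases around the start, was at least 0.6 at 34 member start sites, and 33 of these were under a peak in each of the 6 tables. Among all 8700 genes with such a start site the share was 59.7% in females at 3 weeks, 62.6% in females at 8 weeks, 66.1% in males at 3 weeks and 67.9% in males at 8 weeks. Among the 27 members with a lower ratio, 20 were under a peak in females at 3 and at 8 weeks and 21 in males, where all genes of that class gave 29.5% to 33%. Gene length was compared in the same way. Of the 35 members shorter than 10 kb, 33 in females and 34 in males at 3 weeks had the start site under a peak, against 37.3% and 40.6% of the 7276 genes of that size. The gap was smaller among the 26 members of 10 kb or longer, of which 20 in each sex at 3 weeks had the start site under a peak, against 46.3% and 50.5% of all such genes.

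**Figure D1:**
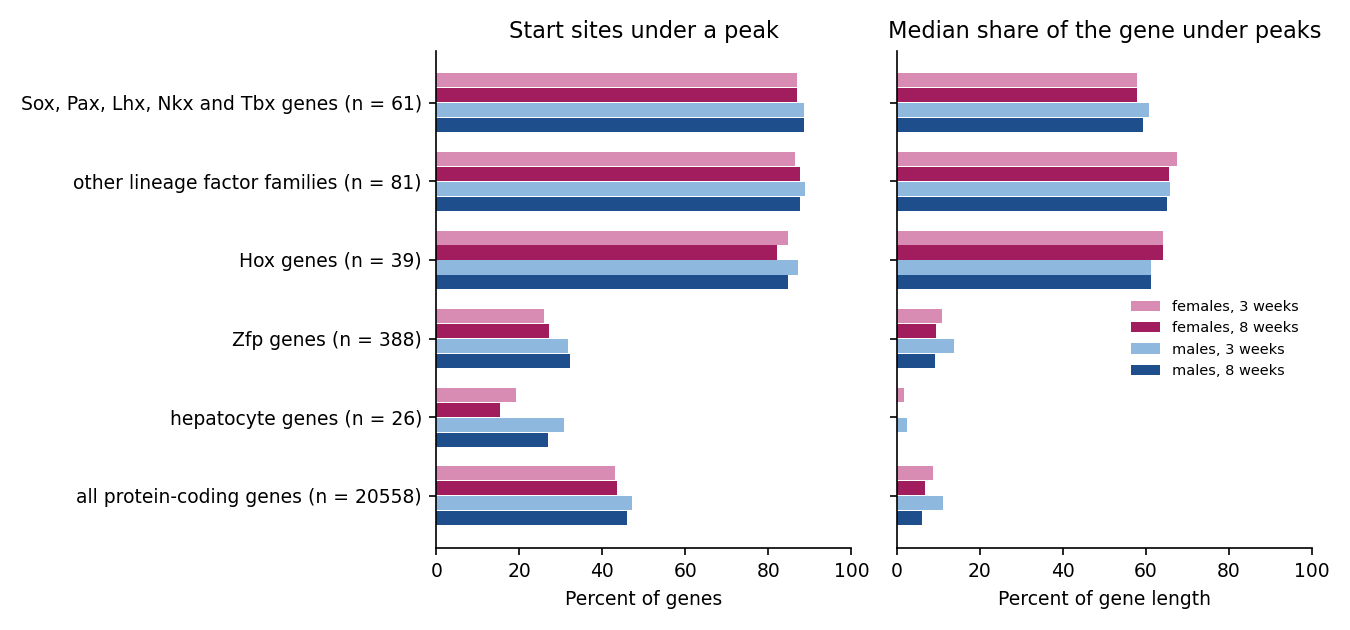
Share of genes whose start site lies under a listed H3K9me3 peak (left, percent of genes) and the median share of the gene's length under peaks (right, percent), for 6 gene lists and the 4 tables that pool control and MO libraries of one sex and age; bars start at 0 and have no error because the tables hold no value per library. The lineage factors reach 86.9% to 88.5% on the left, beside 43.1% to 47% of all genes.

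Other developmental regulators also had peaks at most start sites, and the difference from the 5 families was not tested. Of 81 genes of further lineage factor families, such as Gata, Dlx, Irx and Neurod, 70 to 72 had the start site under a peak across the 6 tables, and of 39 Hox genes 32 to 34. Zfp genes, the zinc finger family with known H3K9me3 clusters, had a lower share of start sites under a peak than genes in general. The counts were 101 to 128 of 388. Their median share of gene length under peaks was above that of all genes in each of the 6 tables. At 3 weeks it was 10.8% against 8.74% in females and 13.7% against 11.0% in males. Of 26 hepatocyte genes, chosen as genes that liver cells use, 4 to 8 had the start site under a peak. Alb, Ttr, Apoh, Fgb, Fgg, Cyp2e1, Cyp7a1, G6pc and Cps1 had no base under a peak in any of the 4 tables that pool the diets, while Cebpa was covered over 100% of its length in females and 76.0% in males. Short lists of other liver cell types gave 3 of 4 cholangiocyte genes, 3 of 3 stellate cell genes and 2 of 4 endothelial genes in every table. Of 3 Kupffer cell genes, 0 had the start site under a peak in females and 1 in males. Presence of a peak over a start site was thus also seen at genes in use in the liver.

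Peaks commonly ran over the body of the genes as well. The median share of gene length under peaks was 57.8% in females at both ages, 60.7% in males at 3 weeks and 59.4% in males at 8 weeks, beside 8.74%, 6.66%, 11.0% and 6.17% over all genes. At least 50% of the gene was under peaks for 36 of 61 members in females at 3 weeks (21.2% of all genes), 35 in females at 8 weeks (19.2%), 35 in males at 3 weeks (22.6%), 34 in males at 8 weeks (19% of all genes), 35 in control females (19.7%) and 35 in control males (22.2%). For 32 genes this held in all 6 tables. Most of these long stretches came from broad peaks: without peaks longer than 5 kb the number in females at 3 weeks was 16 of 61 and in males at 8 weeks 15, beside 7.89% and 6.73% of all genes. The covered share fell with gene length among the 61 (Spearman's rho −0.68 across genes, a description, since coverage per base shares its denominator with length) and hardly among all genes (rho −0.09).

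**Figure D2:**
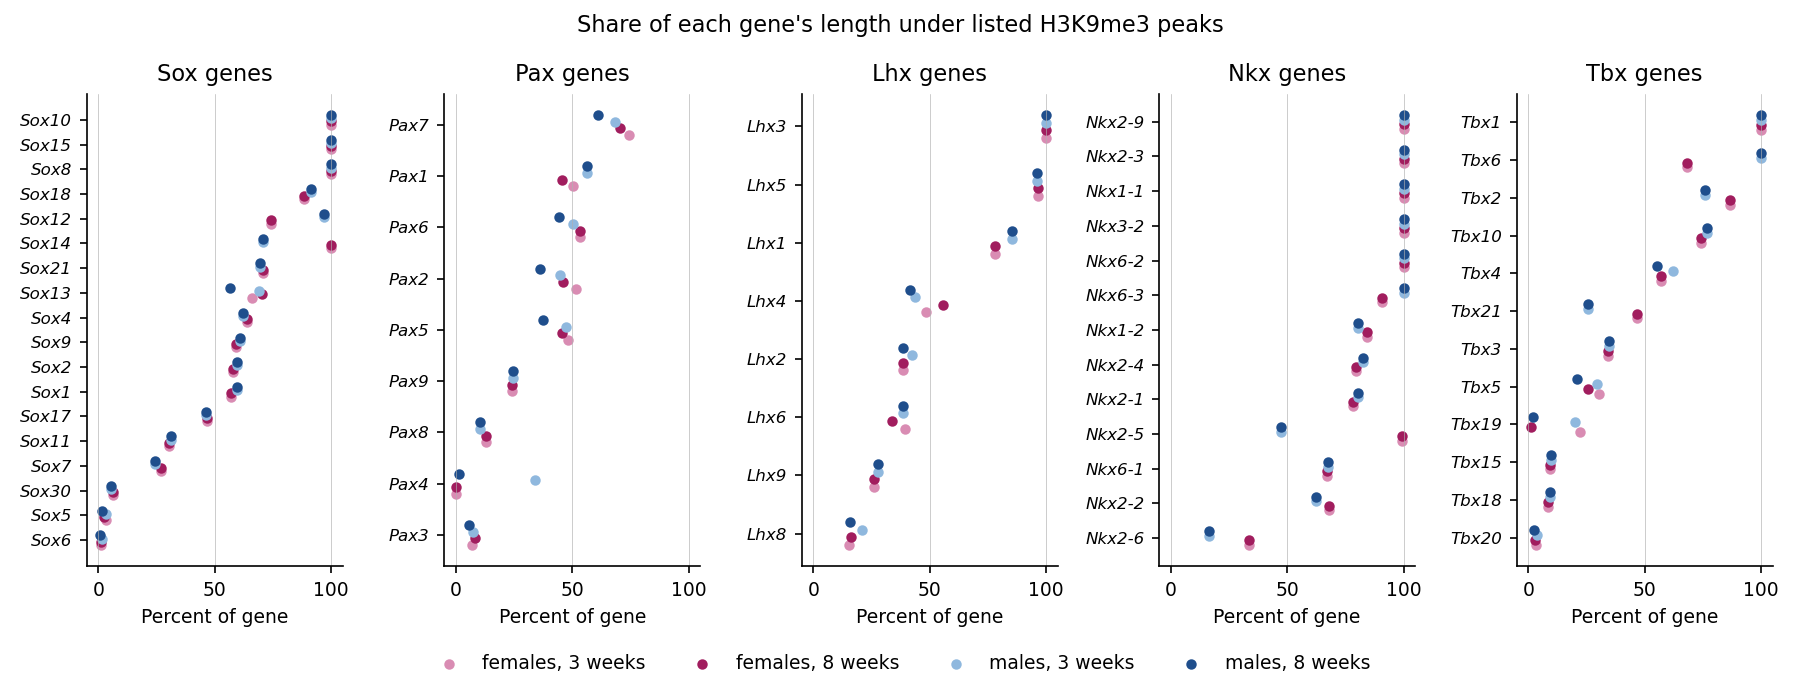
Share of each gene's length (percent) under listed peaks, 1 panel per family, 1 row per gene shown, ordered by its mean over the tables; colours mark the sex and age of the table. Everywhere 10 genes stand at 100%, and Pax3, Sox5, Sox6, Sox30, Tbx15, Tbx18 and Tbx20 stay under 10%.

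The Nkx genes, homeobox factors of thyroid, heart, islet and ventral neural tube, were the most completely covered family, with a median of 87.4% of the gene in females and 81.8% in males at both ages. They were also the shortest, with a median of 3653.5 bases, beside 5171 in Sox, 20132.5 in Tbx, 23848.5 in Lhx and 55049 in Pax. Members shorter than 10 kb of all families had a median of 79.6% in females and 81.2% in males at 3 weeks. Nkx1-1, Nkx2-3, Nkx2-9, Nkx3-2 and Nkx6-2 lay wholly under peaks in all 6 tables. Nkx6-2 sat in 1 peak of 18027 bp in females and of 19529 bp in males, and the longest of all member peaks, 21831 bp in females, was attributed to Nkx1-1 from a bin at −84.4 kb (distances of bins are from the transcript start that the authors' annotation assigned, which need not be the 5′ end of the gene, negative upstream). Nkx2-1, the thyroid and lung factor, was covered over 78.4% in females and 80.4% in males. Nkx2-5, the cardiac factor, was covered over 99.2% in females and 47.2% in males at each age, although its annotated 5′ end was not.

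Among the Sox genes the covered share ran from the whole gene to under 2% in Sox6, and short genes differed among themselves. Sox8 and Sox10, of the neural crest, and Sox15 were wholly under peaks in all 6 tables, and Sox10 in males lay in a peak of 16051 bp. Sox2 and Sox1, factors of neural stem cells, were covered over 57.8% and 56.9% in females and 59.4% and 59.6% in males at each age. Sox9, used by bile duct cells, was covered over 59.1% in females and 60.7% in males, and the endothelial factors Sox7, Sox17 and Sox18 over 26.8%, 46.6% and 88.3% in females. Sox5, a gene of 953863 bases, had 3.33% under peaks in females at 3 weeks, 2.60% in females at 8 weeks, 3.44% in males at 3 weeks and 1.75% in males at 8 weeks, yet its start site was under a peak in each table. Sox6, of 569905 bases, had 0.842% to 1.48% and none at the start. Sox13, the third SoxD gene and 42160 bases long, was covered over 56.6% to 70.2%.

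The LIM homeobox genes ranged from Lhx3, a pituitary and motor neuron factor wholly under peaks in all 6 tables, to Lhx8, a forebrain factor, at 15.2% to 21.1%. Lhx5 was covered over 96.4% in females and 96.0% in males and Lhx1 over 77.8% and 85.4%. Lhx2 held 38.5% to 42.9%. The Pax family, genes of muscle, kidney, B cells, islets and the axial skeleton, held no gene covered throughout: Pax7 was highest at 61.1% to 74.4%, Pax1 lay between 45.7% and 56.5%, Pax5 between 36.9% and 48.1%, and Pax3 between 5.74% and 8.38%. Pax7 and Pax3, both muscle progenitor factors, differed this much at nearly equal gene length (96472 and 95870 bases). Tbx1, of the pharyngeal arches, was wholly covered, Tbx2 over 75.8% to 86.6%, and Tbx20, Tbx18 and Tbx15 under 10% in all 6 tables. Tbx5 and Tbx4, the factors of forelimb and hindlimb, held 20.3% to 30.3% and 55.5% to 62.4%.

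Much of what the tables attribute to these genes lay outside them. Each table holds 1 bin of about 500 bp or less per peak, named by the nearest start site, so a gene in sparse surroundings collects the bins of its flanks. Member bins numbered 549 in control females, 672 in control males, 623 in females at 3 weeks, 534 in females at 8 weeks, 719 in males at 3 weeks and 481 in males at 8 weeks. All autosomal bins numbered 114317, 147360, 133697, 109596, 158810 and 101386, listed likewise. Ranked by size, the member counts and these totals gave the same order. Distal intergenic bins were 49.5% to 52.6% of the member bins, beside 37.9% to 38.8% of all autosomal bins. Promoter bins (within 3 kb of a start site) were 14.6% to 18.3%, beside 19.7% to 22.9%. Of the bins of protein-coding members in females at 3 weeks, 206 of 598 lay in the gene itself, 92 within 10 kb, 241 at 10 to 100 kb and 59 more than 100 kb away.

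Few genes supplied many of the bins. Summed over the 6 tables, Sox5 had 241 bins, Tbx5 201, Nkx6-1 199, Lhx5 152 and Pax7 146, and these 5 made 939 of the 3578. In the other direction Nkx2-2 and Sox10 had 3 each, Tbx6 4, and Sox9, Sox15 and Sox21 5 each. The count says little about the gene itself: Sox10 had no bin in any female table although 100% of it was under peaks there, since the retained bin of that peak was assigned to the neighbouring Polr2f, an RNA polymerase subunit gene. For Sox5, 164 of the 241 bins were within the gene. For Nkx6-1, 104 of 199 were more than 100 kb away and the farthest was 387 kb from it, and for Sox11, a neural factor, 56 of 102 were over 100 kb away, up to 586 kb. Of the other genes with the most bins in their families, Lhx2 had 115, Lhx4 100, Nkx1-1 96, Nkx2-5 66, Pax2 128, Pax5 92, Sox6 109, Sox13 108, Tbx4 115 and Tbx15 94.

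**Figure D3:**
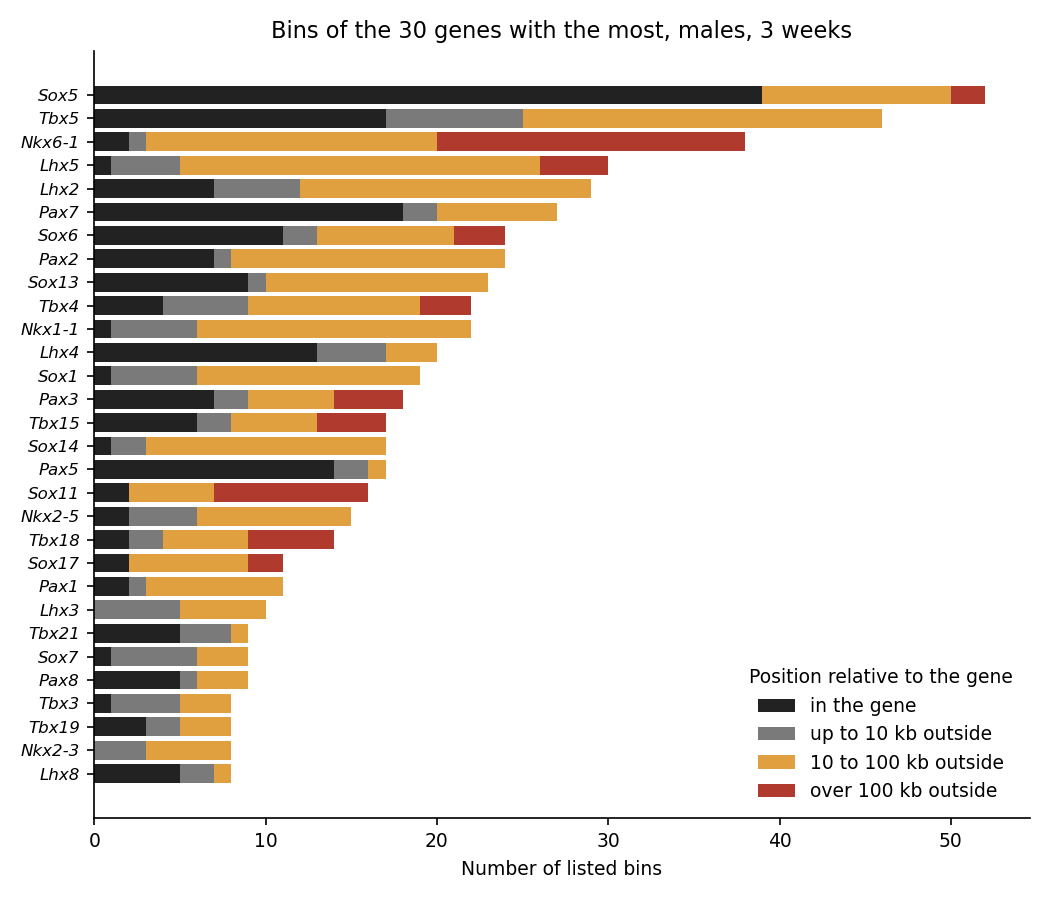
Number of listed bins per gene in males at 3 weeks, the table with the most rows, for the 30 genes with the most bins; colours give the position relative to the RefSeq gene of the same symbol. Sox5 and Pax7 hold mostly bins within the gene, Nkx6-1, Lhx5 and Sox11 mostly bins outside it.

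Peaks around the lineage factors were longer than peaks in general. Their median length was 1065 bp in females at 3 weeks, 1175 bp in females at 8 weeks, 975 bp in males at 3 weeks and 1235 bp in males at 8 weeks, beside 830, 848, 782 and 875 bp over all autosomal peaks. Peaks over 5 kb were 6.95% to 9.77% of member peaks and 4.08% to 6.08% of all. The longest in the male tables after that of Nkx6-2 were those of Sox10, Lhx5 (14344 bp), Pax7 (13955 bp) and Lhx3 (13330 bp), and in the female tables those of Nkx1-1, Nkx6-2, Lhx3 (17852 bp), Pax7 (17175 bp) and Sox8 (16349 bp). GC content of the bins was close to that of all bins (53.9% against 53.7% in females at 3 weeks, 55.8% against 55.3% in males at 8 weeks), and soft-masked bases, those of annotated repeats, made up a median of 8.63% to 9.49% of a member bin and 11.9% to 12.4% of any bin.

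Member peaks were listed as steadily as others: of 701 female peaks 437 were in all 3 tables of the sex (62.3%, beside 60.6% of all autosomal peaks), and of 763 male peaks 452 (59.2%, beside 56.4%).

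The level of the signal was close to that of other bins. The deposited level is the average log2 CPM, that is log2 of the bin's read count scaled to library size (CPM). Among bins of full length the median of the members was 2.38 in females at 3 weeks, 2.62 in females at 8 weeks, 2.05 in males at 3 weeks and 2.75 in males at 8 weeks, and that of all autosomal bins 2.39, 2.60, 2.03 and 2.74. As percentiles of the table, the member medians stood at 48.3 in females at 3 weeks, 53.1 in females at 8 weeks, 53.2 in males at 3 weeks and 51.4 in males at 8 weeks. Ranked by the mean over the tables that list it, the highest bin lay in the flank of Sox5, 140 kb downstream of the assigned transcript start, outside the gene, at chr6:143806275-143806775, with an average log2 CPM of 3.48 in control males and 4.38 in males at 8 weeks. Since tables differ in their median level, this order also depends on which tables list a bin. Next were Tbx2 in exon 6 (3.48, males at 8 weeks), Nkx2-1 at 1597 bp from its start (3.33 in control females and 3.49 in females at 8 weeks), Sox30, a testis factor, at a start site (3.40, control females) and Sox2 at its start (3.33 in control females and 3.45 in females at 8 weeks).

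At the promoters the bin retained could change between tables within the same peak, as at Sox2. Of the 61 genes, 59 had a bin within 1 kb of a start site in at least 1 table and 19 in all 6, but no such bin had the same coordinates in all 6 tables because peaks were merged separately for each sex. Sox2 lay under a peak of 3130 bp in females, chr3:34648291-34651420, and of 3172 bp in males. The level of the retained bin there was 2.27 in females at 3 weeks, 3.45 in females at 8 weeks, 2.37 in males at 3 weeks and 2.66 in males at 8 weeks. These bins lie at different positions in the peak in 3 and 8 weeks, so the levels do not compare the ages. Tbx18 in males kept the same bin, with a log2 CPM of 2.18 at 3 weeks and 3.14 at 8 weeks, percentiles 70.5 and 84.9 of their tables, and in females another bin with 2.98 and 3.00, percentiles 97.0 and 86.0. The male value was higher at 8 weeks on both measures and the female value was higher by a smaller amount in log2 CPM and lower in percentile.

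For age, bins with identical coordinates in the 3-week and the 8-week table of a sex were compared, each table pooling control and MO libraries, so diet cannot be told apart within a value. The 8-week animals were separate cohorts from the 3-week animals, so age cannot be told apart from cohort. The tables were normalized separately, and the median difference over all matched autosomal bins, 0.22 in females (71972 bins) and 0.63 in males (68657 bins) on the log2 scale, was subtracted. Members had 322 matched bins of 52 symbols in females and 277 of 49 in males. Their median difference was −0.02 in each sex, and 151 of 322 and 127 of 277 were above 0. In females 0 of 322 were higher at 8 weeks by more than 1.5-fold, where 1.82% of all matched bins were, and 1 was lower, where 1.23% were. In males 7 of 277 were higher (3.26% of all bins) and 4 lower (1.65% of all bins). In males these were 2.53% and 1.44% of the member bins, near the shares of all bins. With the median of bins of like GC content and level removed instead, 4 were higher and 4 lower in males (3.37% of all bins past 1.5-fold in either direction), and among bins above the median level at both ages, 3 of 134 were higher and 0 lower (3.55% of all such bins in either direction).

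The bin lower at 8 weeks by more than 1.5-fold in both sexes was at −25.0 kb from Sox14, a factor of brain interneurons. In females it fell from a log2 CPM of 3.00 to 2.61, a centred difference of −0.61, and in males from 2.62 to 2.46, a centred difference of −0.78; it was lower without centring too. Its neighbours differed in direction: the bins at −63.4 and −71.2 kb had differences of 0.25 and 0.27 in females and 0.16 and 0.28 in males, and that at −67.9 kb had −0.07 in females and −0.37 in males. Further bins lower in males were 2 of Pax7, in exon 8 (2.82 to 2.69, centred −0.76) and intron 4 (2.35 to 2.36, centred −0.62), and 1 of Sox1 at 55.6 kb (2.55 to 2.52, centred −0.66). The largest negative differences in females after Sox14 stayed within 1.5-fold: Sox1 at 74.9 kb (−0.56), Sox5 at −13.4 kb (−0.50) and Pax1 at −71.5 kb (−0.48). In males the fourth gene was Pax8, the thyroid and kidney factor, in exon 6 (−0.58), which without centring was higher by 0.05.

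All bins higher at 8 weeks past 1.5-fold in males were away from the promoters. They were Nkx6-1 at 352 kb (1.98 to 3.51, centred 0.90) and −12.8 kb (2.49 to 3.72, centred 0.60), Pax2 at −42.6 kb (2.15 to 3.65, centred 0.86), Tbx15 at 67.8 kb (2.13 to 3.53, centred 0.77), Sox17 at −62.1 kb (2.06 to 3.44, centred 0.75) and −113 kb (2.31 to 3.59, centred 0.65), and Lhx4 at −13.3 kb (2.82 to 4.09, centred 0.64). In females the largest were within 1.5-fold, Nkx6-1 at 199 kb (2.58 to 3.35, centred 0.55), Tbx5 in its last exon (2.77 to 3.53, centred 0.53), Pax2 at −29.5 kb (2.40 to 3.14, centred 0.52) and Nkx6-2 at its start site (2.26 to 2.98, centred 0.51). The Nkx6-2 bin was the only one of these 4 at a promoter. With the median of bins of like GC content and level removed, the differences of Tbx5, Pax2 and Nkx6-2 were 0.29, 0.35 and 0.35, and in males 4 of the 7 higher bins came within 1.5-fold: Tbx15 (0.54), Sox17 at −113 kb (0.49), Lhx4 (0.38) and Nkx6-1 at −12.8 kb (0.36). The lower bins of Sox1 (−0.55) and of Pax7 in intron 4 (−0.52) did too, while a bin of Sox5 at −161 kb (0.69) passed as higher and bins of Sox5 at 146 kb (−0.66) and Pax3 at 6.88 kb (−0.68) as lower.

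**Figure D4:**
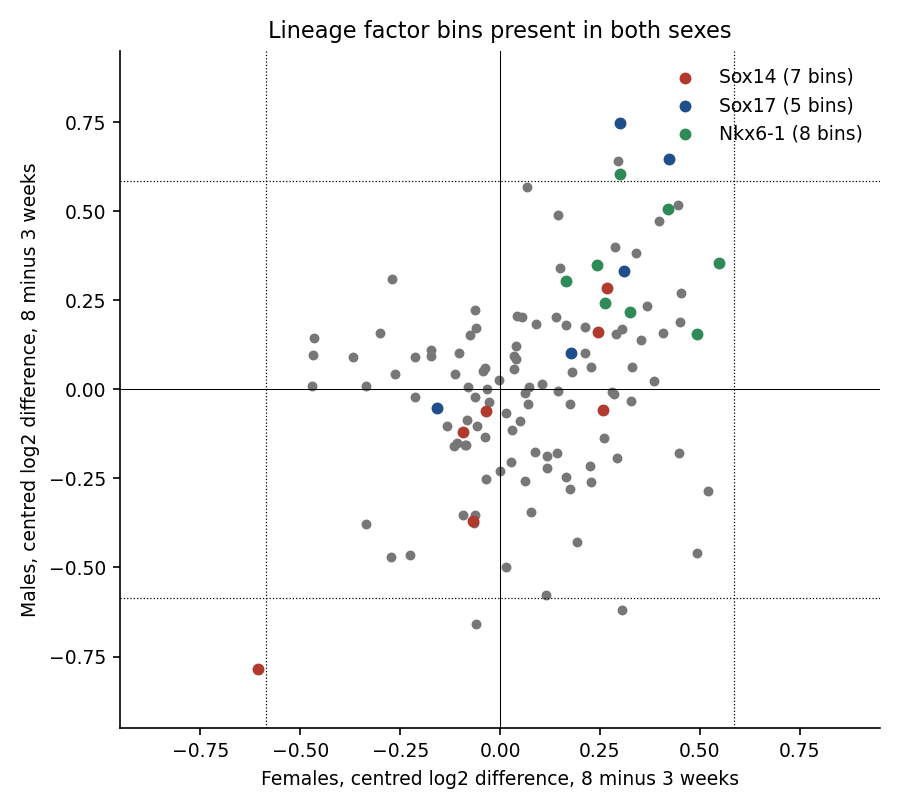
Centred log2 difference between 8 and 3 weeks in females (x axis) and males (y axis) for the 123 member bins that overlap by at least 50% of each other in the sexes; dotted lines mark 1.5-fold. The Sox14 bin at −25.0 kb is alone past 1.5-fold in both sexes, and all 8 Nkx6-1 bins are above 0 on both axes.

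Across the sexes 123 member bins could be paired, and 71 of them had the same sign, 57.7% against 64.5% of the 32465 paired autosomal bins. The pairs share no library, and the rank correlation of the 2 differences was 0.34 over the members and 0.42 over all pairs, given as descriptions. The flank of Nkx6-1, singled out after its values were seen, was among the loci that were higher at 8 weeks in both: its 8 paired bins, from −45.3 to 392 kb, were above 0 in females (0.17 to 0.55) and in males (0.16 to 0.60). Of all its matched bins 12 of 19 were above 0 in each sex. Sox17, likewise singled out, had 5 paired bins, of which the 4 at −62.1 to −113 kb were higher in both sexes and that at 22.1 kb was lower in both (−0.16 in females and −0.05 in males).

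The bins that were higher at 8 weeks in males were rich in repeats. Of the 7 past 1.5-fold, 6 were at least 50% soft-masked (58.3% to 100% of bases), as were 43 of the 277 matched bins. Over all autosomal bins in males, 1274 of the 2237 higher past 1.5-fold were at least 50% masked. In females none of the 39 member bins this rich in repeats was higher past 1.5-fold, where 841 of 19511 such autosomal bins were, and the only member bin past it, that of Sox14 (73.6% masked), was lower. For this split, made after the values were seen, the median centred difference of the member bins at least 50% masked was 0.16 in males (n = 43) and 0.17 in females (n = 39), and that of the other member bins −0.04 (n = 234) and −0.03 (n = 283). All autosomal bins gave 0.08 and −0.02 in males and 0.10 and −0.03 in females, so the direction was that of the whole set. The part of repeats in the age differences was not tested beyond this split. To show such bins, the central 300 bases of 3 of them follow from the GRCm38 genome, plus strand, with soft-masked bases in capitals: the bin of the highest level near Sox5 (chr6:143806376-143806675), the bin lower past 1.5-fold in both sexes near Sox14 (chr9:99901280-99901579) and the bin with the largest gain in males near Nkx6-1 (chr5:101312292-101312591).
Sox5: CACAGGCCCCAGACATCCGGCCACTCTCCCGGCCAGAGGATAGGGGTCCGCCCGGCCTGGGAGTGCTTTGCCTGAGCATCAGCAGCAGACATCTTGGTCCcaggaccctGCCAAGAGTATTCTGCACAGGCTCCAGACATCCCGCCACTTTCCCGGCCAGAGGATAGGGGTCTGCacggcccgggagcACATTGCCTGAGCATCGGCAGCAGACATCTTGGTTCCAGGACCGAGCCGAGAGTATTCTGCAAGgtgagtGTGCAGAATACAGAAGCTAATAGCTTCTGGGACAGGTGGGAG
Sox14: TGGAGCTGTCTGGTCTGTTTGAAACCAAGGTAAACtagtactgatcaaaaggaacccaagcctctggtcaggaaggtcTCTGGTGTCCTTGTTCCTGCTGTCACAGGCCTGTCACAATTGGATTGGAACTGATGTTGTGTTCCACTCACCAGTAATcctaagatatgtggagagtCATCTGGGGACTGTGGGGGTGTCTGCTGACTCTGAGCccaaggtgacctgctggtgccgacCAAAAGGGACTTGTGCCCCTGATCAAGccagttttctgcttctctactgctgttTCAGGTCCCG
Nkx6-1: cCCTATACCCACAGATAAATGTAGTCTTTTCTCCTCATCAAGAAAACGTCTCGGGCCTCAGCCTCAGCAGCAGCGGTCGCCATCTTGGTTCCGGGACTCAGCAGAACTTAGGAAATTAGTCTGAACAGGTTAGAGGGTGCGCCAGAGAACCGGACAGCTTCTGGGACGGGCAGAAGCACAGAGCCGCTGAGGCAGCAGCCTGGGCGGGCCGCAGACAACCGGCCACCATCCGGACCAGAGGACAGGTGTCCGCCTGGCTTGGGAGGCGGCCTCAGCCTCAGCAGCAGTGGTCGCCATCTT
Repeats made up 90.7%, 62.3% and 99.7% of these stretches. The 3 stretches held 11, 2 and 16 CGs.

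**Figure D5:**
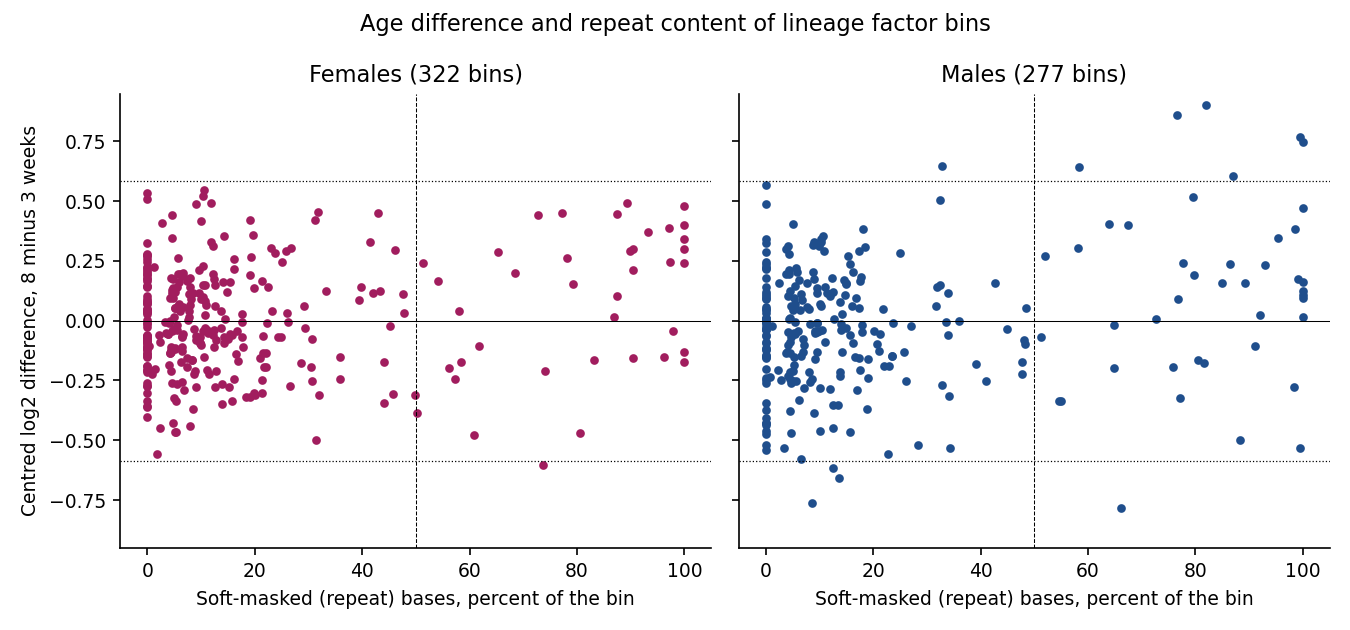
Centred log2 difference between 8 and 3 weeks (y axis) against the share of soft-masked bases in the bin (x axis, percent) for the 322 matched member bins in females and the 277 in males; the dashed line marks 50% masked and dotted lines 1.5-fold. In males 6 of the 7 points above the upper dotted line are right of the dashed line.

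Because peaks were merged over both ages within a sex, the covered share of a gene could differ between the ages only where a whole peak was listed at one of them. The covered share was at least 20 percentage points lower at 8 weeks for 1 of 61 genes in females, Tbx19 (22.1% at 3 weeks and 1.32% at 8 weeks), and for 1 in males, Pax4 (34.0% and 1.43%). Over all genes 2.44% in females and 4.49% in males were lower by as much. A rise of that size was found in 0 of 61 members in each sex, and in 0.579% of all genes in females and 0.0924% in males. Tbx19, the factor that drives pituitary Pomc, was also lower in males at 8 weeks, 20.2% and 2.19%. Pax4, an islet factor, had no base under a peak in females at either age.

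Between the sexes the covered share differed by at least 20 points for 7 of 61 genes at 3 weeks (5.56% of all genes) and 6 at 8 weeks (6.58% of all genes). Among those higher in females were Nkx2-5 (99.2% against 47.2%), Sox14 (100% against 70.8%) and Tbx21, the T-bet factor of T cells and natural killer cells (46.7% against 25.6%), with the same values at both ages. Among those higher in males were Tbx6, of paraxial mesoderm (100% against 68.3%), and Sox12 (96.8% against 74.3%), again at both ages, with Pax4 (34.0% against 0%) at 3 weeks alone. Since the peaks of females and males were merged separately before any table was made, equal values at 2 ages of 1 sex come from the same merged peak and are not separate measurements.

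The level of bins that overlapped by at least 50% in the sexes differed little. Female against male, 7 of 242 member bins were past 1.5-fold in either direction at 3 weeks, beside 2.07% of all 56395 paired bins, and 4 of 221 at 8 weeks, beside 2.67% of 48931. The median centred difference was −0.04 at 3 weeks and 0.0048 at 8 weeks. At 3 weeks the largest were a bin of the antisense transcript Tbx3os2 in its exon 3 (2.21 in females and 2.74 in males, centred −0.85), one at −0.678 kb from Tbx20, a cardiac factor (2.20 and 2.63, centred −0.74), and one 5.59 kb from Pax8 (2.70 and 1.61, centred 0.78). At 8 weeks they were a distal bin of Tbx3os2 at −52.6 kb (2.36 in females and 3.17 in males, centred −0.71), a bin outside Sox6, 133 kb from the assigned transcript start (3.33 in females and 2.59 in males, centred 0.83) and one at 1.70 kb from Nkx2-1 (3.49 and 2.92, centred 0.66).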

How the data were processed

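Reads were aligned by the authors to mm10 (GRCm38), and MACS2 was run in broad mode. Only peaks found in at least 3 replicates were carried on, peak sets were joined within each sex, and peaks longer than 500 bp were cut in bins for counting. Depth per library is not given in the files used here. Nearest genes were assigned by the authors with ChIPseeker. The deposited tables give, per bin, the average log2 CPM over the 8 libraries of a pair, which was used, and the fold change, p-value and FDR of the authors' own comparisons, which were used nowhere. Each peak had exactly 1 bin in a table, and how it was chosen is not given in the sources used here. No column of values per library was left unused (0 columns).

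Autosomal rows were analysed with Python 3.11.15, numpy 2.4.6, pandas 2.3.3 and scipy 1.17.1. Start sites and gene bounds were from RefSeq (GRCm38.p6), whose chromosome lengths hold all bins; 107 genes without a matching strand entry were left out. Base composition and soft-masking were read from the GRCm38 sequence. A value past 1.5-fold is a difference of pooled means, with no test, as planned. Members, gene lists and settings were chosen with earlier results of these data known. Named genes were the 3 with the most bins per family, the 5 bins of highest level, and per sex the 4 largest age differences in each direction, at most 1 bin per gene; the sex differences printed and others singled out were chosen after their values were seen, and any member could be named by its number of bins. The values of 1 gene, which the counts include, are not reported here. A planned list of promoter bins with the same coordinates in all 6 tables was empty. Coverage of start sites and genes by peaks, and the split by repeats, were added after seeing the data. The matching, centring and coverage functions were tested on simulated data.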

Additional observations from a re-analysis of the deposited data

How the results depend on the processing

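No paired analysis was possible because the tables hold only means over 8 libraries, and for the same reason no replicate could be left out. Matching the sexes by identical coordinates gave no bin. Of the values of whole lists under the planned settings, 35 stayed within the tolerance (0.1 on the log2 scale, the binomial interval for a share) and 21 moved. Signs were not kept throughout: without centring the medians for age turned from −0.02 to 0.19 in females and from −0.02 to 0.61 in males, and that between the sexes at 3 weeks from −0.04 to 0.28, and some medians within the tolerance of 0 changed sign too. With the median of bins of like GC content and level removed, 4 of 277 member bins were higher in males, where 7 were under the main setting. The 4 included a bin of Sox5 at −161 kb that was not among the 7. Of all bins, 3.37% were then past 1.5-fold in either direction. The mean level over a table has no error, so the cause of a move was not tested.

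With promoters limited to 1 kb, the promoter share of member bins (and of all bins) was 10.0% (14.4%) in control females, 8.78% (13.0%) in control males, 9.95% (12.8%) in females at 3 weeks, 10.9% (14.9%) in females at 8 weeks, 8.34% (12.1%) in males at 3 weeks and 10.8% (16.2%) in males at 8 weeks. Without centring, bins past 1.5-fold with age were 6.52% (9.00%) in females, 21 higher and 0 lower, and 56.3% (56.6%) in males, 156 higher and 0 lower, and between the sexes at 3 weeks 7.02% (13.6%). At a log2 difference of 0.32 the shares were 15.2% (22.8%) and 20.9% (26.3%) for age in females and males and 16.1% (19.0%) and 23.5% (20.2%) between the sexes at 3 and 8 weeks, and at 2-fold 0% of members in all 4 (at most 0.239% of all bins). With 1 bin per gene the share for age in females was 0% (2.72%), and in males 0 were higher and 2 lower.

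The other settings were chosen after seeing the data, again with the share of all genes in parentheses. Start sites within 1 kb of a peak were 95.1% (60.5%) of members in control females, 96.7% in females at 3 (60.1%) and 8 weeks (60.4%) and 98.4% in control males (65.9%) and males at 3 (64.5%) and 8 weeks (62.2%). Counting only peaks above the median level gave 44.3% (25.6%) and 55.7% (31.0%) in control females and males, 41.0% (22.1%) and 63.9% (26.3%) in females and 59.0% (23.9%) and 54.1% (28.9%) in males at 3 and 8 weeks. With a CpG ratio of at least 0.6 the share was 97.1% (59.7% to 68.7%) in all 6 tables, and with any start site that RefSeq promoters gave, 91.3% (50.5%) in control females. Without peaks over 5 kb, at least 50% of the gene was covered for 26.2% of members in control females and in females at 3 weeks and for 24.6% in the other 4 tables (6.73% to 8.64% of all genes over the 6).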
